A study of Mus musculus with 3 samples.

Results

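The 46 genes described here drive the cell division cycle and the copying of DNA, and all 46 were found by symbol among the 33762 features of an expression table of the E13.5 mouse gut. They were chosen by name: cyclins, cyclin-dependent kinases (CDKs) and their inhibitors, the replication helicase with its loading factors, nucleotide synthesis enzymes, E2f1, and the kinases, motors and checkpoint proteins of mitosis. Polyadenylated RNA was sequenced from 3 segments of wild-type embryos of the strain given as Bl6/C57, the caecum, the colon and the presumptive ileum, the last of 3 equal portions of the small intestine. None of the segments carried an allele or a treatment in the labels, and each is 1 sample of whole gut wall, with epithelium, mesenchyme, muscle, nerve, vessel and blood together. Whether a sample held the tissue of several embryos was not given in the sources used here.

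A dividing cell passes from growth (G1) into DNA synthesis (S), then through a gap (G2) into mitosis (M). D-type cyclins with Cdk4 or Cdk6 release E2F factors from the retinoblastoma proteins, E2F targets such as cyclin E and the replication genes rise toward S phase, and a later set around Cdk1 and cyclin B is transcribed in G2 and M. In the embryonic gut most cell types still divide at this age, so transcripts of both sets are read from bulk tissue as a mixture of cells at all stages.

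Each segment has 1 sample, read here as 1 library, so no difference below has a replicate check and no p-value is given. The table holds 2 count columns per segment that differed by less than counting error, with a mean squared difference of 0.421 to 0.449 times the counting variance, and they were read as 1 library per segment. The libraries held 6.44e+07 counts in the caecum, 5.08e+07 in the colon and 5.01e+07 in the ileum. The 46 genes took 0.608%, 0.656% and 0.667% of the counts of the caecum, colon and ileum. Levels are the authors' RPKM, a read count scaled to gene length and library size, averaged over both columns. Folds are ratios of counts scaled by edgeR's TMM, and brackets after them give 95% intervals that cover counting error only. Segment identity followed the labels for the posterior Hox genes, with Hoxa13 at 81 counts in the caecum, 2310 in the colon and 0 in the ileum.

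All 46 genes were transcribed in all 3 segments at levels within 2-fold of each other. The genes differed far more among themselves than between segments: Cdk4 stood at 280, 264 and 267 RPKM in the caecum, colon and ileum and Cdkn1a at 1.80, 1.92 and 2.83 RPKM, while the median gene stood at 24.9, 27.1 and 28.1 RPKM. The widest gap between any pair of segments was 1.59-fold, for Cdkn1a, and 30 of the 46 (65.2%) stayed within 1.2-fold over all 3, against 47.2% of the 18005 features with at least 20 counts in a library. In the plot of levels by gene the 3 symbols of a gene therefore lie close together. The 47.2% includes features of low count, which scatter more, whereas 45 of the genes had at least 1000 counts in a library. It is thus not a share of like depth, and shares at that depth are given below for each pair of segments.

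**Figure D1:**
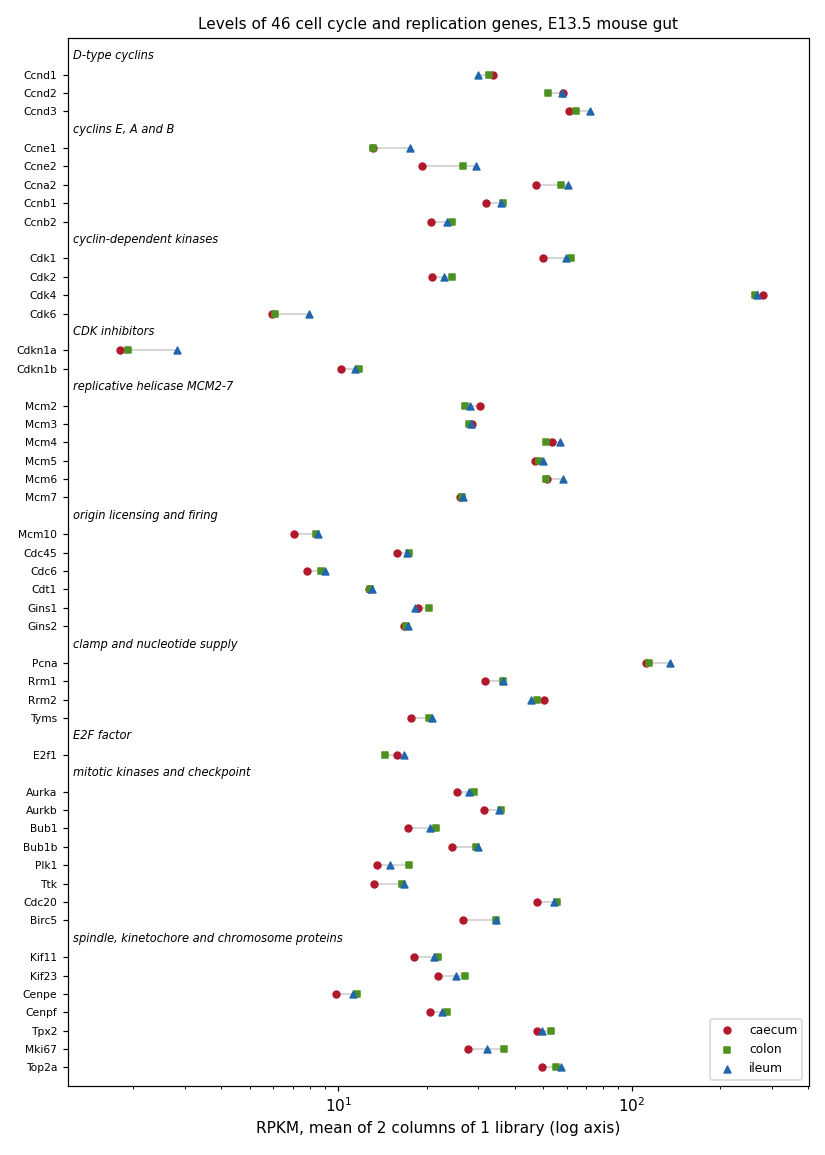
Each row is 1 gene, grouped by role, and each symbol is its level in RPKM (log axis) in the caecum (circle), colon (square) or ileum (triangle), with 1 library per segment and no error bar. Cdk4 lies far to the right at 264 to 280 RPKM, Cdkn1a far to the left at 1.80 to 2.83 RPKM, and for most mitotic genes the caecum is the leftmost symbol.

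Within these narrow limits the caecum library was the lowest for most of the genes. In bulk tissue fewer cells of a type and less RNA per cell cannot be told apart, for these genes as for any other. The caecum had the lowest scaled count for 35 of the 46 (76.1%), the colon for 8 and the ileum for 3, whereas among all features the caecum was lowest for 33.8%. Against the ileum, 41 of 46 were lower in the caecum (89.1%, against 48.7% of all features), with a median log2 ratio of -0.19 against 0.01 for all features. Against the colon, 36 of 46 were lower in the caecum (78.3%, against 48.3%), with a median of -0.17 against 0.01. Between colon and ileum the median was -0.03, with 29 of 46 lower in the colon (63.0%, against 50.8%). Counting intervals lay wholly below 1 for 38 of the 46 in caecum over ileum (against 28.7% of all features), for 30 in caecum over colon (against 26.2%) and for 16 in colon over ileum (against 27.4%). They lay wholly above 1 for 4 (against 30.6%), 7 (against 29.8%) and 6 (against 25.3%) in the same order. Deeper counts narrow the intervals, so genes and features with at least 1000 counts in a library were also compared. Wholly below 1 were 37 of 45 genes against 3489 of 9682 features for caecum over ileum. For caecum over colon 30 of 45 against 3003 of 9683 were below, and for colon over ileum 15 of 45 against 3208 of 9683.

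No gene of the 46 was 2-fold apart in any comparison, where 4.59% of all features were 2-fold higher and 2.52% lower in caecum than in ileum. Those shares were 5.11% and 2.74% for caecum over colon, and 4.04% and 4.29% for colon over ileum. A difference of at least 1.2-fold was met by 12 genes lower in caecum than in ileum (26.1%, against 17.1% of all features) and by 0 higher (against 21.1%). Against the colon, 11 were lower in the caecum (23.9%, against 15.6%) and 0 higher (against 19.1%). In the colon 3 were lower than in the ileum (6.52%, against 16%) and 0 higher (against 16.8%). Low counts scatter more, so the 45 genes with at least 1000 counts in a library were also set beside features of that depth. At that depth only 1.49% of features were 2-fold higher and 0.95% lower in caecum than in ileum. Those shares were 1.81% and 0.63% for caecum over colon, and 0.98% and 1.43% for colon over ileum, against 0 of the 45. For caecum over ileum 11 of 45 were 1.2-fold lower (24.4%, against 11.9%) and 0 higher (against 13.2%). For caecum over colon 11 of 45 were lower (24.4%, against 8.41%) and 0 higher (against 11.1%). For colon over ileum 2 of 45 were lower (4.44%, against 8.9%) and 0 higher (against 8.05%).

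The genes of G2 and mitosis accounted for the most uniform part of this pattern. By textbook timing 19 of the 46 peak in G2 and M, though the phase lists were set with earlier results of these data known. All 19 had their lowest scaled count in the caecum (against 33.8% of all features). Their median log2 ratio was -0.22 for caecum over ileum and -0.26 for caecum over colon, and 0.03 for colon over ileum. For all 19 the counting interval lay wholly below 1 against the ileum and also against the colon. Of all features, 28.7% met the first condition and 26.2% the second, and the share that met both was not counted. Among features with at least 1000 counts in a library these were 3489 of 9682 and 3003 of 9683. Of the 19, 6 were at least 1.2-fold lower in caecum than in ileum (31.6%, against 17.1% of all features) and 10 than in the colon (52.6%, against 15.6%). Between colon and ileum, 0 of the 19 were 1.2-fold lower (against 16%) or higher (against 16.8%). Among features with at least 1000 counts in a library, 11.9% were 1.2-fold lower in caecum than in ileum and 8.41% than in colon. For colon over ileum 8.9% of those were lower and 8.05% higher. Summed over the 19 genes, the level was 544 RPKM in the caecum, 649 in the colon and 634 in the ileum.

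Among the cyclins of this set, Ccna2, which encodes cyclin A2 and acts with Cdk2 and Cdk1 from S phase to early mitosis, had 47.2, 57.6 and 60.9 RPKM in the caecum, colon and ileum. Its level in the caecum was 0.767 times (0.746 to 0.788) that of the ileum and 0.823 times (0.801 to 0.846) that of the colon. Ccnb1 and Ccnb2, the B-type cyclins that start mitosis with Cdk1, differed less. Ccnb1 had 32.0, 36.4 and 35.9 RPKM and was at 0.881 times (0.854 to 0.908) the ileum in the caecum, while Ccnb2 had 20.8, 24.5 and 23.4 RPKM and was at 0.879 times (0.824 to 0.936). Cdk1, the kinase of mitotic entry, had 49.8, 62.1 and 59.9 RPKM, with the caecum at 0.804 times (0.783 to 0.826) the colon and the colon within counting error of the ileum, at 1.02 times (0.995 to 1.05).

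The mitotic kinases and checkpoint genes were all lower in the caecum, 8 of 8 against each neighbour. Of all features, 48.7% were lower in caecum than in ileum and 48.3% than in colon. Birc5, which encodes survivin of the chromosomal passenger complex, had 26.5, 34.4 and 34.4 RPKM in the caecum, colon and ileum, and the caecum stood at 0.763 times (0.736 to 0.792) the ileum and 0.774 times (0.746 to 0.802) the colon. Aurkb, the kinase of the same complex, differed less, at 31.4, 35.8 and 35.3 RPKM. Ttk, the kinase that opens the spindle checkpoint, had 13.3, 16.5 and 16.7 RPKM and was at 0.786 times (0.743 to 0.831) the ileum in the caecum. The checkpoint genes Bub1 and Bub1b were at 0.830 times (0.797 to 0.864) and 0.812 times (0.785 to 0.840) the ileum.

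Plk1, a kinase of mitotic entry and spindle assembly, was among the few mitotic genes with a step between colon and ileum. It had 13.6, 17.5 and 15.0 RPKM in the caecum, colon and ileum, so that the caecum was at 0.780 times (0.732 to 0.831) the colon and the colon at 1.15 times (1.08 to 1.23) the ileum. Aurka, the spindle pole kinase, had 25.3, 29.1 and 27.9 RPKM, and Cdc20, the activator of the anaphase-promoting complex, had 47.4, 55.7 and 54.5 RPKM. For both, colon and ileum differed by less than counting error and the caecum was below both.

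Mki67 (chromosome 7, 142881471 to 142908062 in mm9, minus strand), the gene of the Ki-67 antigen that coats mitotic chromosomes and serves as the usual marker of cycling cells, separated all 3 segments. It had 27.7 RPKM in the caecum, 36.6 in the colon and 32.2 in the ileum, from 17974, 18736 and 16234 counts. The caecum was at 0.759 times (0.744 to 0.775) the colon and 0.851 times (0.833 to 0.870) the ileum, and the colon at 1.12 times (1.10 to 1.15) the ileum. Its ratio of caecum to colon was the lowest of the 19 mitotic genes. Top2a, the topoisomerase that untangles replicated DNA, had 49.3, 55.3 and 57.6 RPKM and, unlike Mki67, was lower in colon than in ileum, at 0.946 times (0.930 to 0.962).

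The spindle motors and kinetochore proteins moved within a narrow band. Kif11, the motor that separates the spindle poles, and Kif23, a motor of cytokinesis, were at 0.833 times (0.802 to 0.865) and 0.812 times (0.782 to 0.844) the colon in the caecum. Cenpe and Cenpf, large proteins of the kinetochore, were at 0.851 times (0.817 to 0.886) and 0.880 times (0.860 to 0.901). Tpx2, a microtubule nucleator that activates Aurka, came closest to equal, at 47.6, 53.0 and 49.5 RPKM in the caecum, colon and ileum and 0.952 times (0.929 to 0.976) the ileum in the caecum.

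**Figure D2:**
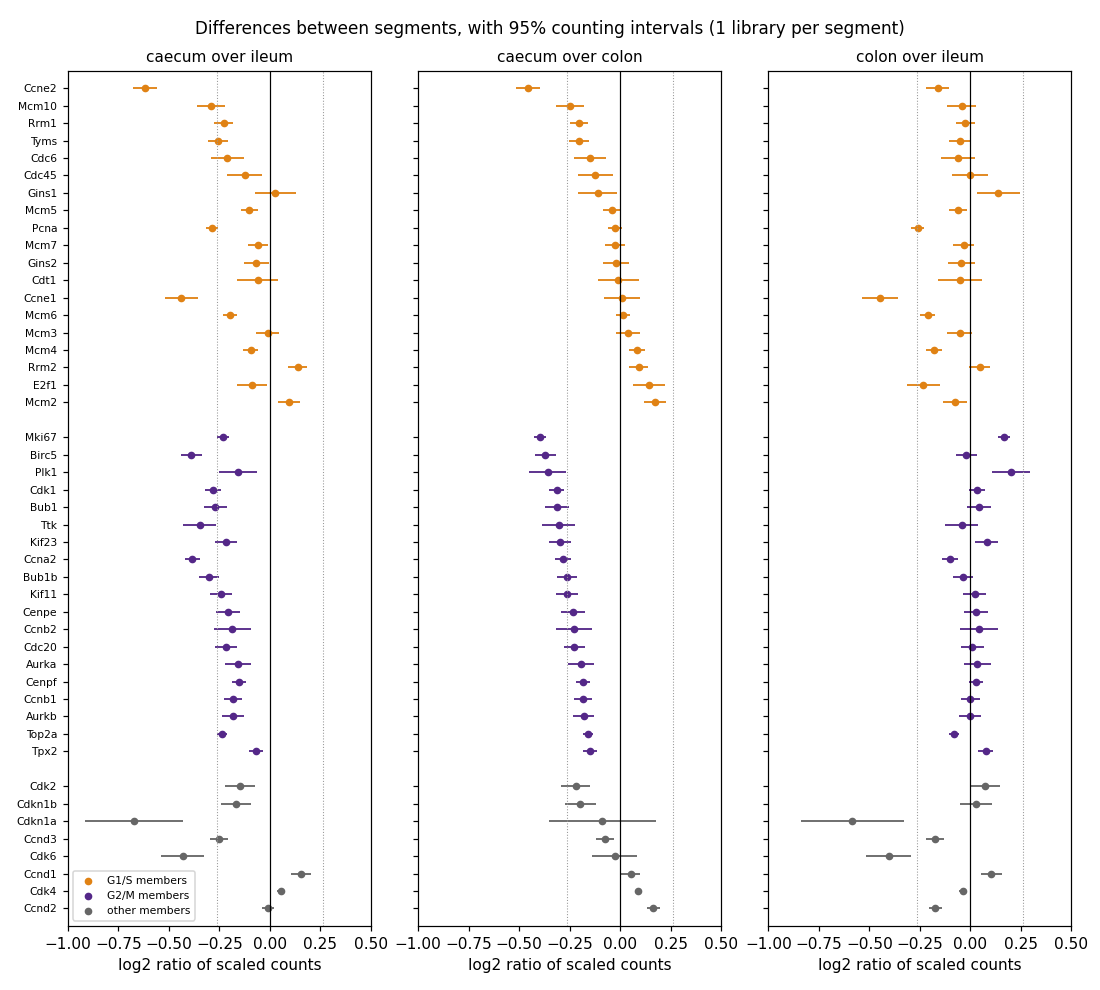
Points give the log2 ratio of scaled counts of each gene for the 3 pairs of segments, lines give 95% counting intervals (1 library per segment), and dotted lines mark 1.2-fold. All 19 G2/M genes lie left of 0 in both panels with the caecum, while the 19 G1/S genes spread on both sides of 0 in the panel of caecum over colon.

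Promoter sequences of these genes are shown because G2/M promoters are known for a short element, the cell cycle genes homology region (CHR, letters TTTGAA), beside CCAAT boxes bound by NF-Y, and G1/S promoters for E2F sites (here GCGGGAAA or TTTGGCGC, each with its reverse complement). RefSeq windows from 250 bases before to 50 after the start, in build GRCm38.p6, matched 37 of the 46 genes with 40 windows, and letters were searched on both strands. The CHR letters were in 12 of 16 windows of G2/M genes (75%), in 2 of 16 of G1/S genes (12.5%) and in 17.9% of all 32851 windows. CCAAT was in 15 of 16 (93.8%), 11 of 16 (68.8%) and 37.4%, and an E2F spelling in 0, 6 (37.5%) and 1.56%. The TATA letters TATAAA were in 0 of the G2/M windows, 1 of the G1/S windows and 13.6% of all. No matches overlapped each other in the windows printed, and a match is a description of the letters, not of binding.

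The windows below belong to the matched genes with the widest gaps between segments, Cdkn1a and Ccne1, to Ccnd3 as the only D-type cyclin with an entry, and to the 3 genes closest to equal over the segments, Mcm3, Mcm7 and Cdt1. Those of Mki67, Birc5, Plk1 and Cdk1, the 4 matched G2/M genes with the lowest ratio of caecum to colon, were added after their values were seen. For genes with several windows the first listed is given. They run 5′ to 3′ in the direction of the gene, with the letters of CHR, CCAAT and E2F matches on either strand in capitals.
Cdkn1a (chr17:29090729-29091028, plus strand): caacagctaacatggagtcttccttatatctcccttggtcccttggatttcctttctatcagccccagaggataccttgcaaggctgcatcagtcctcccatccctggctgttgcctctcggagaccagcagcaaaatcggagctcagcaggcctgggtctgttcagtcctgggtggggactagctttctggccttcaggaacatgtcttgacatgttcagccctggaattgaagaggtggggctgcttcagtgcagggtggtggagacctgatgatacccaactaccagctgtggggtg
Ccne1 (chr7:38107441-38107740, minus strand): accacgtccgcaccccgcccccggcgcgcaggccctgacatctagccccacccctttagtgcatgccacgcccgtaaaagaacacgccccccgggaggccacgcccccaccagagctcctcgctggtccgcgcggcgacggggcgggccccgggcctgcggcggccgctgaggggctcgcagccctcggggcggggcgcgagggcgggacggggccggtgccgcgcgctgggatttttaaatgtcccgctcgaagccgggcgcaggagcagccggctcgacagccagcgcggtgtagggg
Ccnd3 (chr17:47504801-47505100, plus strand): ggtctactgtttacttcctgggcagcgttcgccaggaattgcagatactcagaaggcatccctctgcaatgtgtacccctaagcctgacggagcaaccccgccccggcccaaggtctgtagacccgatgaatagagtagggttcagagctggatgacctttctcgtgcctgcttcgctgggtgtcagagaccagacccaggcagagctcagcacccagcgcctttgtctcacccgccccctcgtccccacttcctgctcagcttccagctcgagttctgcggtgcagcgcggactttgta
Mcm3 (chr1:20820263-20820562, minus strand): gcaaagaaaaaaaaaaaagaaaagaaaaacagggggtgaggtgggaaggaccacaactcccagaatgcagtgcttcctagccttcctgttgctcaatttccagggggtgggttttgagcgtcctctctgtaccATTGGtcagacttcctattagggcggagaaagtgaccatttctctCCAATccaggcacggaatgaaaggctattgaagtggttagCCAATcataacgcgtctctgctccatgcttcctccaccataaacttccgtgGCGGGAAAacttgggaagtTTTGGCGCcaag
Mcm7 (chr5:138171834-138172133, minus strand): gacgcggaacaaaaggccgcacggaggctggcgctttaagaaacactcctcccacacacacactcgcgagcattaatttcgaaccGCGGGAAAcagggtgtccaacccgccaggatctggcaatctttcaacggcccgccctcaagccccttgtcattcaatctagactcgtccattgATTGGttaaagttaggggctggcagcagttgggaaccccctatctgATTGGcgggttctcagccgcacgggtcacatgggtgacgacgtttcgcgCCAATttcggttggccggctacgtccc
Cdt1 (chr8:122567765-122568064, plus strand): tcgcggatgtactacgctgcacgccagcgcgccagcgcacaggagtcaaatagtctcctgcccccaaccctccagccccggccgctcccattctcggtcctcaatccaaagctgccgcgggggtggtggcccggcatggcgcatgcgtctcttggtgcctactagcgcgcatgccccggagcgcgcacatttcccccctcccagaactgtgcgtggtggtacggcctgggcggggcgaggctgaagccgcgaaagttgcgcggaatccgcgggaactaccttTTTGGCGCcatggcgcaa
Mki67 (chr7:135716330-135716629, minus strand): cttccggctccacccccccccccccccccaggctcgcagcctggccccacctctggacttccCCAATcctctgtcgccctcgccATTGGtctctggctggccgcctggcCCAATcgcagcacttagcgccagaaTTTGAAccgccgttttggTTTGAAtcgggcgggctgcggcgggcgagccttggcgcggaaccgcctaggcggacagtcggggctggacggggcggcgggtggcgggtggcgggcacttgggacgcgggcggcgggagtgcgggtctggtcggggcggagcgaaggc
Birc5 (chr11:117848987-117849286, plus strand): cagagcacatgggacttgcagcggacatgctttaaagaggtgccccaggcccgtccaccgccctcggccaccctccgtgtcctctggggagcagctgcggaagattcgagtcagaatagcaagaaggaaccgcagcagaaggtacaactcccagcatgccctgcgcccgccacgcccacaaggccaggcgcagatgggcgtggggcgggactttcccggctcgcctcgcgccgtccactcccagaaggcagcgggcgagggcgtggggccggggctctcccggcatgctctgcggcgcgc
Plk1 (chr7:122159185-122159484, plus strand): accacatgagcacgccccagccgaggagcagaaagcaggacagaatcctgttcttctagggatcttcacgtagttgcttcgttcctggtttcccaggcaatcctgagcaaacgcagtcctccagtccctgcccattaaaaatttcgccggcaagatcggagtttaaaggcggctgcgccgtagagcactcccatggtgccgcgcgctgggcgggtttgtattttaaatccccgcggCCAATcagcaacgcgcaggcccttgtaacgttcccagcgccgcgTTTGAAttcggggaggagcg
Cdk1 (chr10:69352863-69353162, minus strand): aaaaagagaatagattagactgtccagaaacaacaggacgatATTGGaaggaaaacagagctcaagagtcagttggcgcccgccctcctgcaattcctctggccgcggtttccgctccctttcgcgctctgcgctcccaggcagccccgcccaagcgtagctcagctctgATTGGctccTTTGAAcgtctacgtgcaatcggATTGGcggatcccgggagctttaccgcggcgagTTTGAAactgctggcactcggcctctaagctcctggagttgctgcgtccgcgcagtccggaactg

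Mki67 held 2 CHR matches, their first bases at -116 and -98 from the start, downstream of 3 CCAAT matches, and Cdk1 held 2 at -71 and -15 among 3 CCAAT matches. In Plk1 1 CHR match lay at 31 after the start with a CCAAT box at -14. The printed windows of Cdkn1a, Ccne1, Ccnd3 and Birc5 held none of the 3 motifs in these letters. Cdkn1a, Ccnd3 and Mcm7 each have another window, not printed: that of Cdkn1a held no match, and those of Ccnd3 and Mcm7 held 1 CCAAT match each and no E2F spelling. Mcm3 held 2 E2F spellings at 20 and 39 after the start, and Mcm7 and Cdt1 1 each, at -165 and 33.

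Genes that rise toward S phase gave a looser picture. Of the 19 such genes, 16 were lower in caecum than in ileum (84.2%, against 48.7% of all features), with a median log2 ratio of -0.10. Against the colon 12 were lower in the caecum (63.2%, against 48.3%), with a median of -0.03. The ileum had the highest scaled count for 16 of the 19 (84.2%, against 34.3%). In the colon 17 were lower than in the ileum (89.5%, against 50.8%), with a median of -0.05. At least 1.2-fold lower were 4 in caecum over ileum (21.1%, against 17.1%) and 1 in caecum over colon (5.26%, against 15.6%). For colon over ileum 1 was lower by that margin (5.26%, against 16%). These genes all had at least 1000 counts in a library. Among features of that depth the shares lower by 1.2-fold were 11.9%, 8.41% and 8.9% in the same order. The median log2 ratio of the G1/S genes minus that of the G2/M genes was 0.12 for caecum over ileum, 0.24 for caecum over colon and -0.08 for colon over ileum. Summed over the 19 genes, the level was 575 RPKM in the caecum, 589 in the colon and 632 in the ileum.

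The MCM2 to MCM7 subunits, which form the ring-shaped helicase that opens the DNA, were the most even group and all 6 stayed within 1.2-fold over the segments. Of all features with at least 20 counts in a library 47.2% did so, which is not a share of like depth. Mcm3 had 28.5, 27.9 and 28.4 RPKM in the caecum, colon and ileum, with all 3 ratios within counting error of 1. Mcm7 had 25.9, 26.5 and 26.7 RPKM and Mcm5 46.8, 48.4 and 49.7. By scaled counts Mcm2 alone of the 6 was highest in the caecum, at 30.4, 27.1 and 28.2 RPKM and 1.13 times (1.08 to 1.17) the colon. Mcm4 and Mcm6 were highest in the ileum, Mcm6 with 51.3, 51.0 and 58.2 RPKM and a ratio of 0.872 (0.851 to 0.893) for caecum over ileum.

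Factors that load or fire the helicase stood at lower levels than the helicase itself, between 7.07 and 20.3 RPKM. Mcm10, a replisome factor named for its screen and not a subunit of the ring, was lowest in the caecum, with 7.07, 8.43 and 8.56 RPKM in the caecum, colon and ileum and a ratio of 0.818 (0.779 to 0.858) for caecum over ileum. Cdc6, a loader, was also lower in the caecum, at 0.865 times (0.818 to 0.914) the ileum. Its partner Cdt1 was even over the segments, at 12.7, 12.8 and 13.1 RPKM. Cdt1 and Gins2 both lie within the span of a feature on the table named Gm20388, so reads of the 3 may be shared. Cdc45 and Gins2, cofactors that switch the helicase on, were at 0.917 times (0.863 to 0.975) and 0.955 times (0.913 to 0.998) the ileum, while Gins1 was highest in the colon at 20.3 RPKM, against 18.8 in the caecum and 18.2 in the ileum.

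Pcna, the sliding clamp of the polymerases, had 112, 114 and 135 RPKM in the caecum, colon and ileum. It was set apart in the ileum, with ratios of 0.820 (0.803 to 0.838) for caecum over ileum and 0.835 (0.816 to 0.854) for colon over ileum, while caecum over colon was 0.983 (0.961 to 1). The subunits of ribonucleotide reductase, which makes the DNA precursors, went opposite ways. Rrm1 had 31.5, 36.5 and 36.5 RPKM and was lowest in the caecum, whereas Rrm2, the subunit limited to S phase, had 50.3, 47.4 and 45.3 RPKM and was highest there, at 1.10 times (1.07 to 1.14) the ileum. The ratio of Rrm2 to Rrm1 in RPKM was 1.60 in the caecum, 1.30 in the colon and 1.24 in the ileum. Tyms, thymidylate synthase, followed Rrm1 with 17.7, 20.4 and 20.9 RPKM.

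The E-type cyclins, which activate Cdk2 at entry into S phase, were the cyclins that differed most, and each set another segment apart. Ccne1 had 13.1, 13.1 and 17.6 RPKM in the caecum, colon and ileum and was set apart in the ileum, with ratios of 0.738 (0.697 to 0.783) for caecum over ileum and 1.01 (0.945 to 1.07) for caecum over colon. Ccne2 had 19.3, 26.7 and 29.4 RPKM and was set apart in the caecum, at 0.652 times (0.626 to 0.679) the ileum and 0.728 times (0.699 to 0.759) the colon. The ratio of Ccne2 to Ccne1 was accordingly 1.47 in the caecum, 2.03 in the colon and 1.67 in the ileum. Ccne2 (chromosome 4, 11118498 to 11131926 in mm9) overlaps Ints8 on the other strand over 5622 bases, and the strand was not given for the counting. Ints8 had 11874, 8952 and 8915 counts in the caecum, colon and ileum, and the part of its reads in the Ccne2 values was not tested.

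E2f1, the transcription factor that switches on many of these genes and is itself one of its targets, had 15.9, 14.4 and 16.7 RPKM in the caecum, colon and ileum. It was lowest in the colon, with ratios of 1.10 (1.05 to 1.17) for caecum over colon and 0.851 (0.805 to 0.901) for colon over ileum.

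The D-type cyclins, which couple growth signals to the cycle, each had another order. Ccnd1 had 33.6, 32.5 and 29.8 RPKM in the caecum, colon and ileum and was 1.11 times (1.08 to 1.15) the ileum in the caecum. Ccnd2 had 58.1, 52.0 and 57.8 RPKM and was lowest in the colon, at 0.887 times (0.867 to 0.906) the ileum. Ccnd3 had 61.1, 64.7 and 72.0 RPKM and was lowest in the caecum, at 0.840 times (0.815 to 0.865) the ileum. Summed in RPKM the 3 genes came to 153, 149 and 160 in the caecum, colon and ileum, closer together than Ccnd3 or Ccnd1 alone. The ratio of Ccnd3 to Ccnd1 was 1.82 in the caecum, 1.99 in the colon and 2.41 in the ileum.

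Of the kinases they bind, Cdk4 had the highest level of the 46 and was almost even, with 1.04 (1.03 to 1.05) for caecum over ileum and 0.975 (0.962 to 0.988) for colon over ileum. Cdk6, its close relative, was sparse at 5.97, 6.11 and 7.97 RPKM and set apart in the ileum, with 0.741 (0.689 to 0.797) for caecum over ileum and 0.755 (0.699 to 0.816) for colon over ileum. Cdk4 was 46.9 times Cdk6 per length in the caecum, 43.2 times in the colon and 33.5 times in the ileum. Cdk2, the partner of cyclins E and A, had 20.9, 24.4 and 22.9 RPKM and was lowest in the caecum, at 0.859 times (0.817 to 0.903) the colon.

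The CDK inhibitors among the 46 both had their lowest scaled count in the caecum and differed in the ratio of colon to ileum. Cdkn1a (chromosome 17, 29227924 to 29237667 in mm9, plus strand), the p53 target p21 that stops cells in G1, had 258, 217 and 316 counts in the caecum, colon and ileum, the fewest of the 46, and was set apart in the ileum at 2.83 RPKM. Its ratios were 0.628 (0.530 to 0.742) for caecum over ileum and 0.667 (0.559 to 0.796) for colon over ileum, while caecum over colon, at 0.941 (0.782 to 1.13), was within counting error. Cdkn1b, p27, was even between colon and ileum at 11.8 and 11.4 RPKM and lower in the caecum at 10.2 RPKM, a ratio of 0.890 (0.844 to 0.939) to the ileum, the same order as Cdk1 and Cdk2.

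The wider pathway was read from 142 further genes in 4 lists, of which 139 were found. These lists too were chosen with earlier results of these data known. Other genes of mitosis and cytokinesis followed the mitotic members, with 50 of 59 lowest in the caecum (84.7%, against 33.8% of all features). Their median log2 ratios were -0.23 for caecum over ileum and -0.21 for caecum over colon. Of these 59, 22 were at least 1.2-fold lower in caecum than in ileum (37.3%, against 17.1% of all features) and 25 than in the colon (42.4%, against 15.6%). By that margin 0 were higher in either comparison (against 21.1% and 19.1%). Among 43 genes of origin recognition and the replisome, 33 were lowest in the caecum (76.7%, against 33.8%) and 13 were 1.2-fold lower there than in the ileum (30.2%, against 17.1%). Against the colon 4 of the 43 were 1.2-fold lower in the caecum (9.30%, against 15.6%), and 0 were 1.2-fold higher in either comparison. These shares of all features include low counts, which scatter more. Among features with at least 1000 counts in a library, 11.9% were 1.2-fold lower in caecum than in ileum and 8.41% than in colon. Some genes of these lists have fewer counts than that. Of 18 cell cycle transcription factors, 5 were 1.2-fold lower in caecum than in ileum (27.8%, against 17.1%) and 2 than in the colon (11.1%, against 15.6%), with medians of -0.10 and -0.08. By that margin 1 was higher in caecum than in ileum (5.56%, against 21.1%) and 2 than in the colon (11.1%, against 19.1%).

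**Figure D3:**
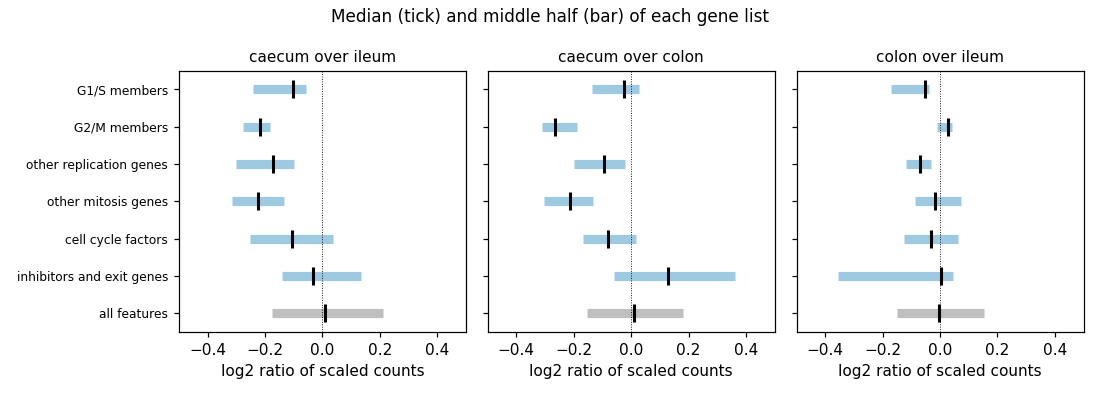
For each gene list the tick marks the median and the bar the interquartile range of the log2 ratios of scaled counts, with 1 library per segment. G2/M members and the other mitosis genes lie left of 0 in both comparisons of the caecum, at medians of -0.22 and -0.23 against the ileum, and all features are centred at 0.01.

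**Figure D4:**
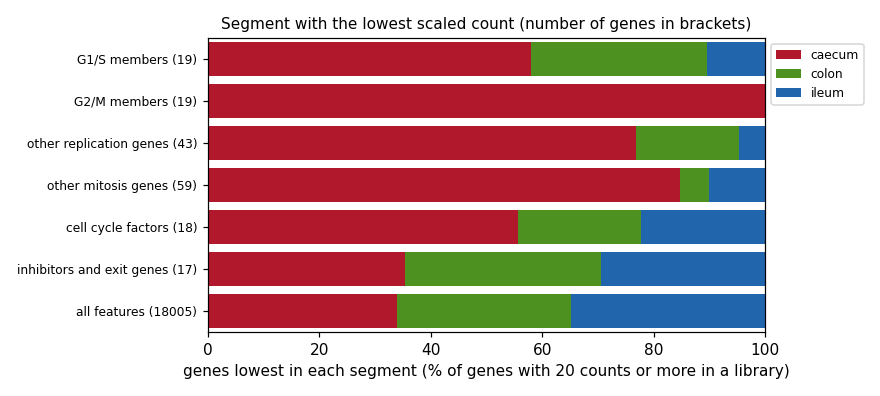
Bars split each gene list by the segment with the lowest scaled count, as a percentage of its genes with 20 counts or more in a library. The caecum is lowest for 100% of the G2/M members, 57.9% of the G1/S members and 33.8% of all features.

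In these lists Anln, an actin-binding scaffold of the cleavage furrow, and Hmmr, a spindle protein, were among the lowest in the caecum. Anln had 10.6, 14.4 and 16 RPKM in the caecum, colon and ileum, a ratio of 0.655 (0.626 to 0.684) for caecum over ileum, and Hmmr was at 0.697 times (0.672 to 0.722). Cdkn3, a phosphatase that acts on CDKs and is itself transcribed with the mitotic genes, had 273, 384 and 369 counts and was at 0.562 times (0.480 to 0.659) the colon in the caecum. Myc, a growth factor-induced transcription factor, had 25.5, 34.7 and 34.9 RPKM and was at 0.722 times (0.693 to 0.752) the ileum.

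Genes of arrest and exit from the cycle went both ways, and with 17 genes tested their shares are coarse. For caecum over colon 5 were 1.2-fold higher (29.4%, against 19.1% of all features) and 2 lower (11.8%, against 15.6%), with a median log2 ratio of 0.13. For colon over ileum 2 were higher (11.8%, against 16.8%) and 5 lower (29.4%, against 16%), with a median of 0.00. Cdkn1c, the imprinted inhibitor p57, was the most abundant, with 195, 132 and 190 RPKM in the caecum, colon and ileum, and was 19.1, 11.2 and 16.7 times Cdkn1b per length. It was 1.48 times (1.45 to 1.52) the colon in the caecum, and the colon was at 0.686 times (0.671 to 0.702) the ileum.

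The stress-response genes Gadd45a and Gadd45g were 1.46 times (1.30 to 1.64) and 1.65 times (1.40 to 1.96) the colon in the caecum, and Cdkn2c, an inhibitor of Cdk4 and Cdk6, had 192, 106 and 188 counts in the caecum, colon and ileum. Mycn, a relative of Myc, had 12.3, 9.14 and 13.0 RPKM and was 1.36 times (1.27 to 1.44) the colon in the caecum, unlike Myc. Cdkn2b, an inhibitor of Cdk4 and Cdk6, was the only gene of the 4 lists past 2-fold, with 7, 50 and 0 counts. It was at 0.111 times (0.0424 to 0.245) the colon in the caecum. In the colon it was 16.2 times the ileum when the ileum is set to a floor of 3 counts per library, and at least 12.7-fold higher by the lower counting bound.

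In the caecum, genes 1.2-fold or more above the ileum were Ccng2, an atypical cyclin linked to arrest, at 1.44 times (1.39 to 1.5), Gadd45b at 1.44 times (1.13 to 1.84) and Lin37, a subunit of the DREAM complex that represses cell cycle genes, at 1.22 times (1.09 to 1.37). Ccng2 and Lin37, together with Tfdp2, a partner of E2F factors, were higher in colon than in ileum, at 1.29 times (1.23 to 1.34), 1.31 times (1.17 to 1.47) and 1.22 times (1.17 to 1.27).

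Markers of several cell types of the gut wall differed between the libraries. The 6 smooth muscle genes summed to 413 RPKM in the caecum, 567 in the colon and 1081 in the ileum. Of these, 5 were at least 2-fold lower in caecum than in ileum (against 2.52% of all features). The other 1 was at least 1.2-fold higher in caecum than in ileum (against 21.1%), and 1 of the 6 was so against the colon (against 19.1%). The 6 genes of enteric neurons and crest cells summed to 173, 98.9 and 167 RPKM, and all 6 were at least 1.2-fold higher in caecum than in colon (against 19.1% of all features). The 10 epithelial genes summed to 233, 263 and 237, the 5 endothelial genes to 49.1, 58.9 and 49.9 and the 5 blood genes to 1208, 1117 and 1168. The 4 macrophage genes summed to 11.6, 10.4 and 9.86, the 4 mesothelial genes to 37.5, 43.9 and 29.5 and the 5 mesenchymal genes to 479, 522 and 487. All 5 endothelial and all 4 mesothelial genes were lower in caecum than in colon (against 48.3% of all features), with median log2 ratios of -0.20 and -0.43. So were 4 of 5 mesenchymal, 4 of 6 smooth muscle and 6 of 10 epithelial genes, but 0 of 6 of neurons and crest. Against the ileum, 4 of the 5 endothelial and 2 of the 4 mesothelial genes were lower in the caecum (against 48.7% of all features). Sums hide single genes that differed more: Msln of the mesothelium had 16, 204 and 24 counts in the caecum, colon and ileum, Dcn of the mesenchyme 3704, 1290 and 2320, and Elf3 of the epithelium 390, 435 and 757. These 3 genes were singled out after their values were seen. No marker of these lists was at 0 counts in any library. Their part in the differences of the cell cycle genes was not tested.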

How the data were processed

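Polyadenylated RNA of 3 gut segments was read with paired reads on TruSeq libraries, per the labels' protocols. Bowtie 0.12.7, DESeq and the build mm9 appear in the submitters' processing notes. How reads were counted, with which annotation and whether by strand, was not given in the sources used here. The authors deposited expected counts, in places with fractions of 0.5, and RPKM, both per the file headers. Both columns of a segment were averaged and the result rounded. Spans of 14 of the 46 genes overlap another feature, 13 of them one on the other strand.

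Scaling used TMM factors (edgeR 4.0.16, R 4.3.3). Each fold has an exact Clopper-Pearson 95% interval from the binomial split of its counts (scipy 1.17.1). Features needed 20 counts in the higher library of a pair, and 2-fold and 1.2-fold were the thresholds. With 1 library per segment there was no test. Scaling, intervals and folds were tested on simulated data. Alternatives were median-of-ratios (DESeq2 1.42.0), total and upper quartile scaling, other count minimums, either column alone, deposited RPKM and calls from interval bounds. Members, lists, phases and thresholds were chosen with earlier results of these data known. All members are named. Of the other lists, up to 4 genes per direction with bounds farthest from no difference and any at 2-fold are named. Promoter windows follow the rule of largest and smallest folds and D-type cyclins, with 4 G2/M windows added after values were seen. Coordinates of genes are mm9 with starts counted from 1, and promoter windows are GRCm38.p6.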

Additional observations from a re-analysis of the deposited data

How the results depend on the processing

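Of 1335 single ratios of the 46 genes listed under alternatives, 1332 stayed within the counting interval of the reported value. Another 3 moved outside it, and 0 changed sign among those past 1.2-fold. Part of this agreement was fixed by design. Other count minimums (138, 138 and 135 ratios) and leaving out overlapping genes (96) do not alter a single ratio. The moves were 1 of 138 each for total count scaling, upper quartile scaling and deposited RPKM. Other scalings shifted all log2 ratios by at most 0.021. The median log2 ratio of the 46 genes ranged from -0.21 to -0.18 for caecum over ileum, -0.19 to -0.16 for caecum over colon and -0.04 to -0.001 for colon over ileum, so the last is close to 0. The caecum was lowest for 24 to 37 genes, and for 16 to 19 G2/M genes, where the lower ends come from leaving out the 14 genes that overlap another feature (an alternative added after seeing the data), which leaves 32 genes and 16 G2/M genes. No gene of the 46 was 2-fold apart under any alternative. With calls from the interval bound, 7 of the 46 were 1.2-fold apart for caecum over ileum and 5 for caecum over colon, in place of 12 and 11.

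The numbers of all features apart depend on depth. The counts below run in the order caecum to ileum, caecum to colon, colon to ileum. At 2-fold, 1268, 1404 and 1465 features were apart. Without a count minimum these were 3450, 3721 and 3761, with a minimum of 100 counts 707, 804 and 810, with 1000 counts (added after seeing the data) 228, 222 and 192, and from interval bounds 630, 741 and 769. At 1.2-fold, 6808, 6207 and 5763 became 11807, 11251 and 10855 without a minimum, 2403, 1858 and 1445 with 1000 counts and 3339, 3049 and 2904 from interval bounds, and for colon over ileum 3831 with 100 counts.

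No paired analysis was possible because each segment has 1 sample and no result comes from a test. Differences of this size between libraries of the same segment were not measured, so the intervals say nothing about variation between embryos or dissections.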
